A study of Mus musculus with 8 samples.

Results

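Jdp2 and 6 related transcription factors of the AP-1 family were followed across 8 microarrays of mouse embryonic stem cells. The family members were Jdp2, Jun, Junb, Jund, Fos, Fosl1 and Atf3. Jdp2 was chosen by its measured change with nocodazole, and the others by name. The members were found by gene symbol in the platform's annotation. It named 8 of 20355 probes to 6 of the 7 genes, 3 of them to Jun and 1 each to Jdp2, Junb, Fos, Fosl1 and Atf3, and none to Jund. These 6 are among 9930 genes that the annotation names. By the channel labels, each array set the line HM-1 against the line R1, in its 2 colours. The protocol text speaks instead of organs and of a reference pooled from animals, which these labels do not match, and the channel labels are followed here. Both are embryonic stem cells, HM-1 lacking a working Hprt gene and R1 being much used for gene targeting. On 4 arrays both lines were untreated and on 4 both had received nocodazole, a drug that takes microtubules apart and holds cells in mitosis. The labels give no dose or duration for the drug and do not say whether replicates were separate cultures, so p-values measure only how far these arrays differ among themselves, possibly for technical reasons.

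Each value is a log2 ratio between the lines, with the array's median set to 0 and the deposited sign kept. The sources used here do not settle which line is the numerator, so neither is called higher. Treated and untreated cells were never on the same array. A difference between the groups is therefore a shift in how the lines compare, and says nothing of either line's own response. Per the labels, HM-1 carried the dye Cy3 on nocodazole replicate 4 and untreated replicates 3 and 4, and Cy5 on the remaining 5 arrays. The design text states as many swapped as unswapped arrays, so the sources conflict on the dye of at least 1 array. No source says whether the Cy3 arrays were already turned to the direction of the others. An extreme value that each array repeats, read as a code, was positive on every Cy5 array and negative on every Cy3 array, so its sign went with the dye. The deposited signs are used, and values with the Cy3 signs reversed follow the members. A ratio holds no level. The labelled cell type could therefore not be checked against its markers, and fewer cells of a type cannot be told apart from less RNA per cell.

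AP-1 is a family of dimers built from proteins with a basic region, which contacts DNA, and a leucine zipper, which joins the partners. Jun proteins pair with each other or with Fos proteins, and the dimers bind the palindrome TGANTCA near genes of growth, stress and differentiation. Jun and Fos are immediate early genes, switched on within minutes by growth factors and stress through MAP kinases. Jdp2 pairs with Jun and represses AP-1 sites by bringing in histone deacetylases. Atf3, its closest relative, is a stress-induced factor that binds the cyclic AMP response element, or CRE. In reprogramming to pluripotency Jun is known as a barrier and Jdp2 as a factor that helps.

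The promoters of the genes the results turn on, and of the neighbouring and related members Fos and Atf3, show which of these sites lie close to their starts. The windows hold the 250 bases before a start and come from RefSeq (build GRCm38.p6), which had them for 6 of the 7 members, 3 of them for Jdp2. Capitals mark the matches that a search of both strands found for TGANTCA, for the CRE TGACGTCA, for its core TGACGT, which the full CRE contains, for the Jun-type site TGACATCA and for the CArG box, and on the gene's own strand for TATAAA.
Jdp2, chr12:85599166-85599415, plus strand: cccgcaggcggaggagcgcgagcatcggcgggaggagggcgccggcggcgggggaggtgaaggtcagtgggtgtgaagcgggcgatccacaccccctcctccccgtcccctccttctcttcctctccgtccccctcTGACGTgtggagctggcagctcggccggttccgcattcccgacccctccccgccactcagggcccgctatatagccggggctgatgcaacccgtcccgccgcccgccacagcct
Jun, chr4:95052223-95052472, minus strand: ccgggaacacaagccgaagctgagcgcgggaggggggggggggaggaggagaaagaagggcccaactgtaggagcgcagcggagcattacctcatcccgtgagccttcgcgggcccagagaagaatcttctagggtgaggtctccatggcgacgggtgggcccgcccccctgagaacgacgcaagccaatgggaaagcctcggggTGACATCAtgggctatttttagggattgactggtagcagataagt
Fos, chr12:85473640-85473889, plus strand: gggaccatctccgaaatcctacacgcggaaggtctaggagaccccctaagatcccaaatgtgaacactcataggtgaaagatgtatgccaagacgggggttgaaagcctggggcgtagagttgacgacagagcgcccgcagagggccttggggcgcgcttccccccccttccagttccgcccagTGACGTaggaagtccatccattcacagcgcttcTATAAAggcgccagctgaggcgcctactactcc
Atf3, chr1:191183334-191183583, minus strand: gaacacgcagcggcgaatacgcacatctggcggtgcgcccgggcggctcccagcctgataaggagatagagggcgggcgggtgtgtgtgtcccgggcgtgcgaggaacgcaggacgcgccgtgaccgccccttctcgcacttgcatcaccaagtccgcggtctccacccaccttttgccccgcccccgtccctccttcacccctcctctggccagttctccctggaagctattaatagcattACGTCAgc

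The Jun window holds TGACATCA at 45 to 38 bases before the start, a match that 2.93% of 32851 windows of this length have. The CRE core lies 114 to 109 bases before the second start of Jdp2, 66 to 61 bases before that of Fos and 8 to 3 bases before that of Atf3, and 6.47% of all windows have it. Fos also has TATAAA, as 7.59% of windows do. None of the 8 windows of the members holds TGANTCA (6.75% of all windows), the full CRE (1.55%) or the CArG box (1.47%). The windows shown were 58.4% to 72.4% G and C, against a median of 52.4% over all windows, and the shares were not adjusted for this. These matches are descriptions of the sequence, and binding was not measured.

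Jdp2 had a positive ratio between the lines on every untreated array and a negative one on every nocodazole array. The untreated values were 0.21, 0.57, 0.78 and 0.64 on replicates 1 to 4. With nocodazole they were -0.46, -1.01, -1.39 and -0.68. The lowest untreated value, on replicate 1, stood above the highest nocodazole value, also on replicate 1, so the groups did not overlap. The group means were 0.55 ± 0.24 and -0.89 ± 0.40 (SD, n = 4 each). Their difference was -1.44 on the log2 scale, a 2.71-fold shift of the ratio.

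This shift is the value Jdp2 was chosen by, so it is given without a test. A fall with no overlap was seen in 1.03% of the 11681 features measured on every array, and the turn from positive on every untreated to negative on every nocodazole array in 0.248%. The difference was alike within each dye label, at -1.34 over the 5 arrays with HM-1 in Cy5 and -1.39 over the 3 with HM-1 in Cy3. Among these 3, nocodazole replicate 4 was the sole nocodazole array. With any 1 array left out it lay between -1.58 and -1.27. The ratio over both conditions together, which the choice did not use, was -0.13 (SE 0.12, limma, adjusted p = 0.9).

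**Figure D1:**
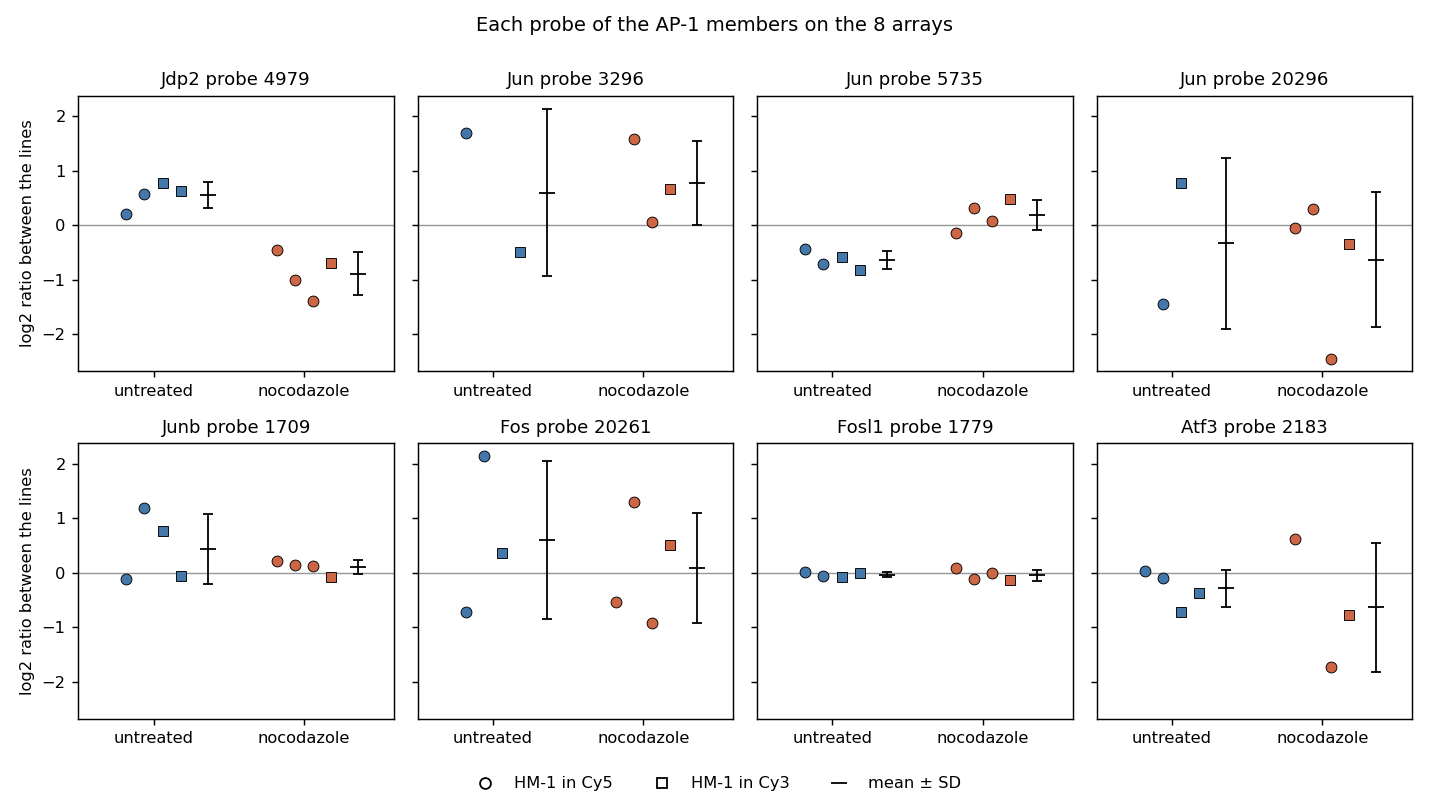
Log2 ratio between HM-1 and R1 (vertical axis) for each probe of the members on the untreated and nocodazole arrays, with circles for HM-1 in Cy5, squares for HM-1 in Cy3, and bars for the mean ± SD. Jdp2 lies between 0.21 and 0.78 untreated and between -1.39 and -0.46 with nocodazole, Jun probe 5735 moves the other way, and Fosl1 stays between -0.14 and 0.09.

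Jun, the central partner of AP-1 dimers, was read by 3 probes that did not tell the same story. Probe 5735 was the only one of them with a value on every array. It was at -0.43, -0.71, -0.58 and -0.82 on untreated replicates 1 to 4. With nocodazole it was at -0.14, 0.32, 0.09 and 0.49. Every untreated value was below every nocodazole value, and nocodazole replicate 1 was the only nocodazole array below 0. This order is the reverse of that of Jdp2.

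The means of Jun probe 5735 were -0.64 ± 0.17 and 0.19 ± 0.27 (SD, n = 4 each), a difference of 0.82, or 1.77-fold. In limma with probes kept apart, its fitted change was 0.85 (SE 0.19, unadjusted p = 0.00326, adjusted p = 0.993). Its ratio in untreated cells was -0.64 (SE 0.13, unadjusted p = 0.00203, adjusted p = 0.632). Neither passed the threshold of 0.05 after adjustment, and the count of probes that did was 0 (0%) for the change. At an unadjusted p under 0.05, 1.69% of 16884 probes had a positive change and 3.14% a negative untreated ratio. A rise with no overlap between the groups was seen in 1.03% of the 13555 probes measured on every array. The difference was 0.66 within the arrays with HM-1 in Cy5 and 1.19 within those with HM-1 in Cy3, where nocodazole replicate 4 was the sole nocodazole array.

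The other Jun probes gave fewer values and wider spreads. Probe 3296 was at 1.69 and -0.49 on untreated replicates 1 and 4, and at 1.59, 0.06 and 0.67 on nocodazole replicates 2, 3 and 4. On nocodazole replicate 1 it held a value read as a code for an empty channel and was set to missing. Probe 20296 was at -1.44 and 0.77 on untreated replicates 2 and 3, and at -0.04, 0.30, -2.45 and -0.34 on nocodazole replicates 1 to 4. In both probes the groups overlapped.

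Averaged over its probes, Jun was at 0.63, -1.08, 0.10 and -0.65 untreated and at -0.09, 0.74, -0.77 and 0.28 with nocodazole. The groups overlapped, with means of -0.25 ± 0.76 and 0.04 ± 0.64 (SD, n = 4 each). Since the probes are missing on different arrays, this mean rests on a different set of probes from array to array. Its fitted change was 0.32 (SE 0.50, limma, adjusted p = 0.997), and -0.09 without untreated replicate 2. The separation of the groups in probe 5735 was not present in the gene mean.

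Junb, a Jun protein that often restrains growth and holds Jun in check, had a wide spread in untreated cells. The values were -0.12, 1.19, 0.77 and -0.07 on untreated replicates 1 to 4 and 0.22, 0.15, 0.12 and -0.07 with nocodazole. The nocodazole values fell inside the untreated range, and untreated replicates 2 and 3 stood high. The means were 0.44 ± 0.64 and 0.10 ± 0.13 (SD, n = 4 each). The fitted change was -0.39 (SE 0.33, limma, adjusted p = 0.997). It was -0.74 without untreated replicate 1 (unadjusted p = 0.0397, adjusted p = 0.996 in limma) and -0.05 without untreated replicate 2, so single untreated arrays set its size. Its untreated ratio was 0.44 (SE 0.23, limma, adjusted p = 0.83). With arrays weighted by their quality that ratio was 0.56 (unadjusted p = 0.039, adjusted p = 0.54 in limma). Without untreated replicate 1 it was 0.72 (unadjusted p = 0.0122, adjusted p = 0.657), and over both conditions 0.35 (unadjusted p = 0.0373, adjusted p = 0.772). Jund, the third Jun protein, had no probe.

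Fos, the founding partner of Jun, was at -0.73, 2.15 and 0.36 on untreated replicates 1 to 3 and was missing on replicate 4. With nocodazole it was at -0.54, 1.31, -0.93 and 0.50. Both groups spanned 0 and overlapped, and replicate 2 was the highest array of each. The means were 0.59 ± 1.45 (SD, n = 3) and 0.08 ± 1.01 (SD, n = 4), and the fitted change -0.50 (SE 0.93, limma, adjusted p = 0.997). With any 1 nocodazole array left out the fitted change lay between -0.92 and -0.17. Without untreated replicate 1, 2 or 3 Fos had too few untreated values to be fitted. The difference of the means turned from -0.51 to 0.27 without untreated replicate 2. Of its 7 values, 6 were ratios of small whole numbers once the array's offset was taken off, such as 1 to 2, 4 to 1 and 4 to 3 on untreated replicates 1, 2 and 3. The intensities behind them were not analysed here.

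Fosl1, also called Fra-1, a Fos protein without the strong activating end of Fos, was the steadiest member. It lay between -0.08 and 0.01 untreated and between -0.14 and 0.09 with nocodazole. The means were -0.03 ± 0.04 and -0.04 ± 0.10 (SD, n = 4 each). The fitted change was -0.02 (SE 0.12, limma, adjusted p = 0.997). Of its 8 values, 2 were ratios of small whole numbers.

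Atf3, the stress-induced relative of Jdp2, was at 0.03, -0.09, -0.72 and -0.37 on untreated replicates 1 to 4. With nocodazole it was at 0.62, -1.74 and -0.78 on replicates 1, 3 and 4 and missing on replicate 2. The nocodazole values spread over a range wider than that of the untreated ones and enclosed them. The means were -0.29 ± 0.33 (SD, n = 4) and -0.63 ± 1.19 (SD, n = 3). The fitted change was -0.41 (SE 0.57, limma, adjusted p = 0.997). The difference of the means was -0.34, and 0.21 without nocodazole replicate 3 and -0.97 without nocodazole replicate 1. With a replicate block the fitted change was 0.09, so its direction was not settled. With overlapping groups, Atf3 did not share the separation seen in Jdp2, although none of its values was a ratio of small whole numbers. The difference between Atf3 and Jdp2 was not tested.

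Set side by side, the members did not all change in the same direction. In limma 0 of the 5 members other than Jdp2 passed the threshold in any of the 4 comparisons (untreated ratio, nocodazole ratio, both together, and change), and 0 of the 5 had an unadjusted p under 0.05 in that fit of all 8 arrays with equal weights. Of all 14015 features 0 passed in any of them (0% each). The features with an unadjusted p under 0.05 were 6.33% for the untreated ratio, 2.91% with nocodazole, 5.58% for both together and 3.29% for the change. The fitted change was positive for Jun and negative for the other 5 measured members, Jdp2 among them. Over all 14015 features it was negative for 7131. The median over the 6 members was -0.40, against -0.0048 over all features. This median includes Jdp2, which was chosen for its change, and describes the list alone.

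Of the members' 57 values, 14 (24.6%) were ratios of whole numbers up to 10, against 11% to 19.4% over all values of an array. With the array offset shifted, which gives the share of matches by coincidence, it was 4.38% to 5.03%. None were in Jdp2 or Atf3 and 1 of 8 was in Jun probe 5735, on nocodazole replicate 3. Arrays held between 17928 and 19445 values. The SD of the log2 ratios was 1.28 on nocodazole replicate 3 and at most 0.91 on the others. Nocodazole replicate 1 stood apart in other genes. The median of 8 endoderm markers was 0.42 on it and between -0.59 and -0.19 on the other nocodazole arrays, and that of 9 fibroblast markers was 0.31 on it and between -0.30 and -0.21 on the others. The endoderm markers Sparc (1.23), Dab2 (1.27) and Sox17 (0.76) were positive on it and negative on the other nocodazole arrays, while Gata6 was at -0.21. With the deposited sign Jdp2 was negative on that array like the rest of its group. With that array's sign turned Jdp2 would be positive on it, and the groups would overlap. Whether its sign or dye label is reversed was not tested. Without that array the difference was -1.58 for Jdp2. The medians of embryonic stem cell (6 genes), trophectoderm (3 genes) and neuroectoderm and mesoderm markers (2 genes) overlapped between the groups. They ranged from -0.06 to 0.25, from -0.40 to 0.10 and from -0.50 to 0.69 untreated, and from -0.04 to 0.12, from -0.54 to 0.18 and from -1.93 to 0.45 with nocodazole. Endoderm and fibroblast medians were -0.60 to -0.13 and -0.22 to 0.02 untreated. Of the marker genes tested, 1 had an unadjusted p under 0.05 for the change, against 3.29% of all features. It was the stem cell factor Esrrb (1.83, SE 0.33, adjusted p = 0.997 in limma), named after its values were seen. The part of these cells in the values of the members was not tested.

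With the signs of the arrays with HM-1 in Cy3 turned, the separation of the groups was lost for both Jdp2 and Jun. Jdp2 was then at 0.21, 0.57, -0.78 and -0.64 untreated and at -0.46, -1.01, -1.39 and 0.68 with nocodazole, with means of -0.16 ± 0.65 and -0.54 ± 0.90 (SD, n = 4 each). The groups overlapped, and the difference was -0.39. Jun probe 5735 had means of 0.06 ± 0.75 and -0.06 ± 0.34 (SD, n = 4 each) and a difference of -0.12, opposite in sign to the deposited reading. The differences within the Cy5 arrays, -1.34 for Jdp2 and 0.66 for Jun probe 5735, are the same in either reading as long as those 5 dye labels hold. An equal swap would need 1 more array in Cy3, which no source names. Without nocodazole replicate 3, the array tried for this, they were -1.13 and 0.66. No other Cy5 array was tried in this way, nocodazole replicate 1 among them, so this does not settle the conflict over the dye. In the turned reading Junb had a difference of 0.05 and Fosl1 of 0.02, again opposite in sign to the deposited reading, while Fos (-0.52) and Atf3 (-0.37) kept theirs.

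**Figure D2:**
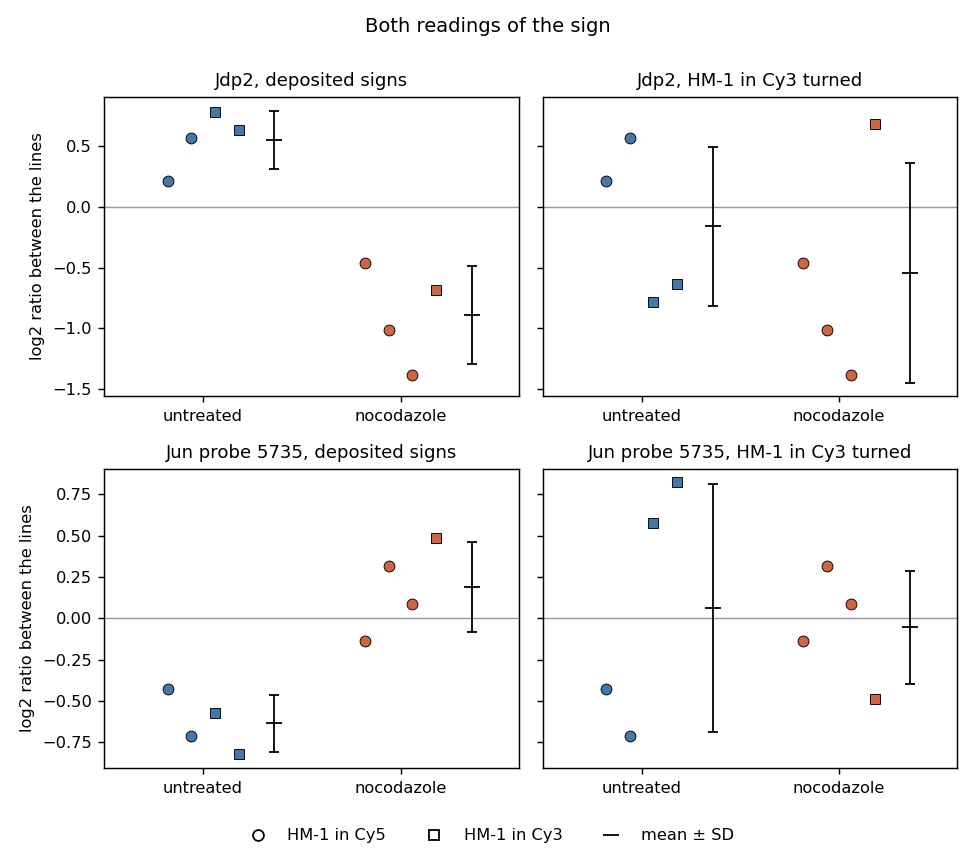
Log2 ratio between the lines (vertical axis) for Jdp2 and Jun probe 5735 with the deposited signs (left) and with the arrays of HM-1 in Cy3 turned (right), with circles for HM-1 in Cy5, squares for HM-1 in Cy3, and bars for the mean ± SD. The groups separate on the left and overlap on the right, while the circles keep their place.

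Fos, Jdp2 and Batf are consecutive protein-coding genes on mouse chromosome 12 in the RefSeq gene table. Batf is a small AP-1 protein that pairs with Jun and lacks an activating part. It was at 0.41, 0.12, -0.31 and 0.10 untreated and between -0.19 and -0.07 with nocodazole, with means of 0.08 ± 0.29 and -0.12 ± 0.06 (SD, n = 4 each). Batf was thus negative on every nocodazole array, as Jdp2 was, but the groups overlapped and the fitted change of -0.26 (SE 0.16) did not pass (limma, adjusted p = 0.997). Tmed10, a cargo receptor of the secretory pathway and the next gene on the other side of Fos, was at -0.24 ± 0.24 and -0.04 ± 0.27 (SD, n = 4 each). The differences of the group means were -0.51 for Fos and -0.20 for Batf, the genes next to Jdp2, and 0.20 for Tmed10. Jdp2 was chosen for its own change of -1.44, so these are set beside it as a description and were not tested against it.

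Among the other proteins with a basic region and leucine zipper, 12 of 24 listed genes were tested. In limma 0 of 12 changed with nocodazole after adjustment, and 0 had an unadjusted p under 0.05. Their median change was -0.20, with 4 positive and 8 negative, where 7131 of all 14015 features were negative. Fosb, the Fos protein closest to Fos, was at 0.15 ± 0.19 untreated and 0.04 ± 0.04 with nocodazole (SD, n = 4 each). Atf4, the main effector of the integrated stress response, had a difference of -1.13 with nocodazole values from -2.27 to 0.14, and with overlapping groups. Mafk, a small Maf protein that pairs with Nfe2l2, went from -0.17 ± 0.75 to 0.46 ± 0.45 (SD, n = 4 each), with overlapping groups.

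Kinases, phosphatases and other regulators upstream of AP-1, called the kinase list here, centred on 0, with fitted changes from -0.37 to 1.10. Of 35 listed genes 18 were tested, 9 with a positive and 9 with a negative change, and the median was -0.0011. In limma 0 passed, and 0 had an unadjusted p under 0.05 for the change. Mapk8, the Jun kinase JNK1, differed by 0.02 between the groups. Mapk9, the kinase JNK2, differed by 0.08. Map2k1 and Map2k2, the kinases that activate ERK, differed by -0.12 and 0.21. Each of these 4 shifts was smaller than the spread of the untreated arrays.

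Immediate early genes outside AP-1 were spread about 0 as well, with 17 of 26 tested, a median change of -0.05, and 0 past the threshold in limma. The growth factor response gene Egr1 was the 1 gene of these 17 with an unadjusted p under 0.05 for the change, against 3.29% of all features. It was named after its values were seen. It was at -0.08, -1.34, -0.93 and -1.07 untreated and at 0.67, 0.78 and -0.57 on nocodazole replicates 1, 2 and 4, and the groups overlapped. Its fitted change was 1.03 (SE 0.38, unadjusted p = 0.039, adjusted p = 0.997 in limma). Ccn2, a matrix protein and target of YAP and SRF, was at -0.41 ± 0.11 untreated and -0.09 ± 0.16 with nocodazole (SD, n = 4 each). Its groups did not overlap, which held upwards for 1.05% of features on all arrays, and its change did not pass (0.30, SE 0.14, adjusted p = 0.997 in limma). Its relative Ccn1 (-0.24), the nuclear receptor Nr4a1 (-0.31) and the survival gene Ier3 (0.32) had overlapping groups.

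Of 27 genes known as AP-1 targets 17 were tested, 6 with a positive and 11 with a negative change, and the median was -0.07. Of all 14015 features 7131 had a negative change. In limma 0 passed after adjustment. Il24, a cytokine gene, was the 1 of these 17 with an unadjusted p under 0.05 for the change, against 3.29% of all features. It was put on the list with its change already known. It was at 0.58, 0.95 and 0.78 on untreated replicates 1, 3 and 4 and at -0.85, -0.92 and -0.68 on nocodazole replicates 2, 3 and 4, the same turn of sign as Jdp2. Its fitted change was -1.50 (SE 0.16, adjusted p = 0.912 in limma). The counts and the median of the list include Il24. The protease inhibitor Timp1 (-0.09), the urokinase Plau (-0.06) and the matrix proteases Mmp9 (0.14) and Mmp3 (-0.33) had overlapping groups.

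Corepressors and chromatin partners of Jdp2 and Jun had a median change of 0.16, with 8 of the 10 tested genes positive. Over all 14015 features the change was positive for 6884. In limma 0 of the 10 passed or had an unadjusted p under 0.05 for the change. Hdac3, a deacetylase that Jdp2 is known to bring to Jun targets, was at 0.07, -0.67, -0.14 and -0.17 untreated and at 0.93, -0.16, 0.08 and 0.02 with nocodazole. The groups overlapped, and the highest value was that of nocodazole replicate 1. Irf2bp1, a known partner of Jdp2 and a ubiquitin ligase, went from -0.46 ± 0.65 to 0.44 ± 0.69 (SD, n = 4 each; fitted change 0.89, SE 0.48, adjusted p = 0.997 in limma). The deacetylases Hdac1 and Hdac2 differed by 0.08 and 0.14.

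**Figure D3:**
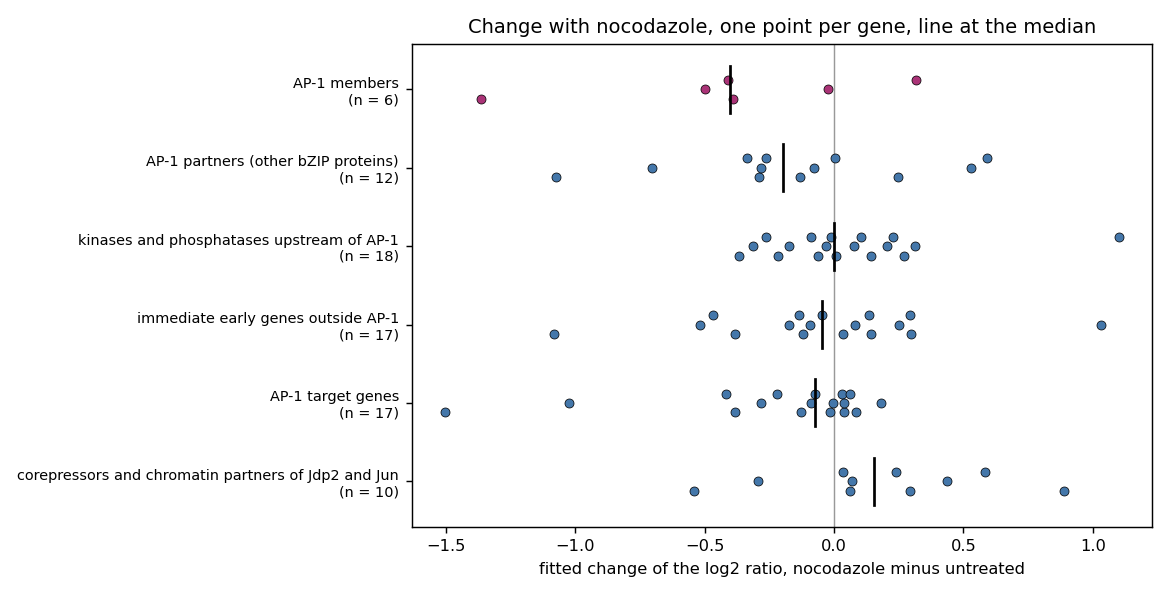
Fitted change of the log2 ratio between the lines, nocodazole minus untreated (horizontal axis), with a point for each tested gene of the members and of the 5 related lists and a black line at each list's median. Jdp2 (-1.36) lies at the low end of the members and Il24 (-1.50) at that of the targets, and both were included with their change already known. The kinase list has its median at -0.0011.

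The genes whose values over the 8 arrays were most like those of Jdp2, by Pearson's r among 7487 named genes measured on every array, were Adamts17, Caln1, Ift81, Rab28 and Gm920. The 8 arrays share the split into the 2 groups, and r is given as a description. Adamts17, a secreted metalloprotease, had r = 0.953 and went from 1.23 ± 0.65 to -0.33 ± 0.51 (SD, n = 4 each). Caln1, a calcium-binding protein of neurons, had r = 0.928 and, like Jdp2, was positive on every untreated array and negative on every nocodazole array, at 0.22 ± 0.23 and -0.40 ± 0.37 (SD, n = 4 each).

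Ift81, a transport protein of cilia, had r = 0.923 and a difference of -0.64. Rab28, a small GTPase, had r = 0.916, and its values of 0.23 to 0.60 untreated and -0.16 to -0.0020 with nocodazole did not overlap. Gm920 had r = 0.911 and the widest spread, from -2.00 to 1.75. No other AP-1 member was among them. Junb had r = 0.449, Fosl1 0.064 and Jun, as the mean over its probes, -0.204, while Fos and Atf3 lacked a value on 1 array and were not compared.

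**Figure D4:**
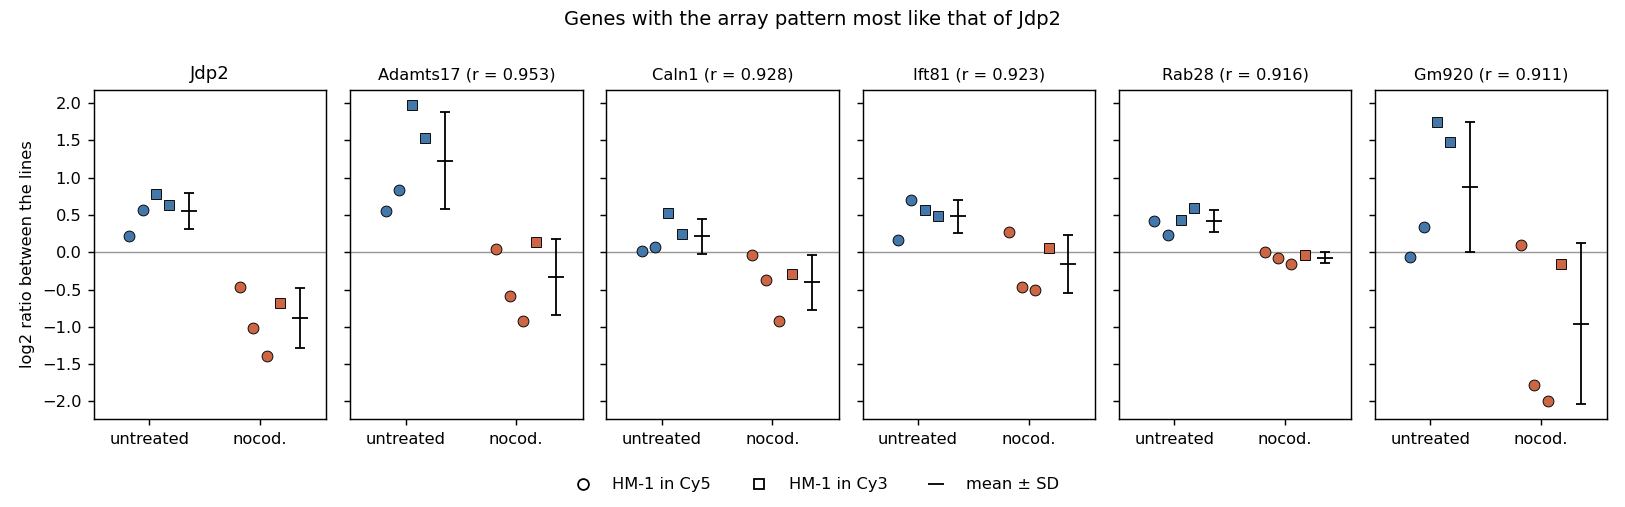
Log2 ratio between the lines (vertical axis) for Jdp2 and the 5 named genes with the highest Pearson's r to it over the 8 arrays, with circles for HM-1 in Cy5, squares for HM-1 in Cy3, and bars for the mean ± SD. Of the 5, Caln1 and Rab28 change sign between the groups on every array, as Jdp2 does.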

How the data were processed

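The authors deposited 1 log2 ratio per probe and array. How they extracted and normalized the signals is not stated in the sources at hand. The values themselves show the log2 scale and a median near 0, and the direction is unknown. One extreme value repeated within each array, a ratio of 100000 or its inverse (16.6 on the log2 scale) plus that array's offset, was read as a code for an empty channel, which no source states. These 74 to 203 values per array were set to missing. Of 20355 probes, 14030 had 1 gene symbol, 5 several and 6320 none, and 13994 matched the RefSeq gene table (assembly GRCm38.p6) by gene ID, which gave names and gene order. Arrays were centred on their median (-0.19 to 0.12 as deposited), and probes of 1 gene were averaged.

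This left 16255 features. The 14015 with 3 or more values in both groups entered limma 3.58.1 (lmFit and eBayes, R 4.3.3), in 1 model over the 8 arrays that held each group's mean and the dye label. P-values are two-sided and Benjamini-Hochberg adjusted over all features. The script was tested on simulated data. The members and lists were chosen with earlier results of these data known. Of each related list, the first 4 genes in written order with a value on every array are named, with the 5 patterns most like Jdp2 and the neighbours of Jdp2 and Fos. Marker lists are given by their medians, a narrower rule than the one first written. Sparc, Dab2, Sox17, Gata6 and Esrrb are named from them after their values were seen. Whole-number ratios were matched within 0.0015 on the log2 scale. The number of arrays limits the precision. Correlations of same-numbered arrays' deviations were 0.126, 0.0206, -0.0513 and 0.0944. The nocodazole array most like the untreated one was the same-numbered array for replicates 1 and 4 but not for 2 and 3. With correlations this low the replicate numbers were not taken to pair arrays, and a replicate block was run as an alternative.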

Additional observations from a re-analysis of the deposited data

Results flagged for a closer look

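The ratio between the lines of Jdp2 was positive on every untreated and negative on every nocodazole array, a difference of -1.44 on the log2 scale. The same turn was seen in Caln1 (-0.62) and Rab28 (-0.49), both picked for their likeness to Jdp2. These 3 differences were not tested, since the values chose the genes.

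Of 53 groups of 4 arrays examined with Dixon's ratio, over the members and the genes named from the related lists, 2 held an array apart from the other three, where chance gives about 2.6. Both concern untreated replicate 3. Mapk9 was at 0.50 on it and between -0.29 and -0.17 on the other untreated arrays. Map2k1 was at 0.53 on it and between -0.0060 and 0.01 on the others. Of the members, groups with a missing value were not examined. These were Fos untreated, Atf3 with nocodazole, Jun probe 3296 in both groups and Jun probe 20296 untreated. The examined groups of the members held no array apart.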

How the results depend on the processing

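Under 21 alternatives the count of features past the threshold in limma stayed at 0 for the untreated ratio and for both conditions together. For the ratio with nocodazole it was 1 when features needed a value on every array, a probe without a gene symbol (adjusted p = 0.0316). For the change it lay between 0 and 1 with single arrays left out, the 1 being an unnamed probe without untreated replicate 1 (adjusted p = 0.0487). At an unadjusted p under 0.05 the counts were 887, 408, 782 and 461 for the untreated ratio, nocodazole, both and the change. With the Cy3 arrays turned they were 1468, 719, 1464 and 682. The nocodazole count was 630 without nocodazole replicate 1 and 653 without replicate 4, and the count for both was 493 without nocodazole replicate 2. With a replicate block 0 features passed in each comparison, with 616 for nocodazole and 569 for the change at an unadjusted p under 0.05, and the fitted change of Jdp2 was -1.19.

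The fitted change of Jdp2 kept its sign under all 21 alternatives, between -1.51 and -0.37, the latter with the Cy3 arrays turned. Jdp2 was chosen for this change. Having 1 probe with a value on every array, it could not move in alternatives that only regrouped probes or changed which features entered. The difference of Jun probe 5735 was between 0.72 and 0.93 when any 1 array was left out, and its sign was the opposite with the Cy3 arrays turned. The mean over all Jun probes rose to a difference of 1.67 with the coded ratios kept. The fitted change of Atf3 was 0.09 with a replicate block. The difference of the group means turned to 0.27 for Fos without untreated replicate 2 and to 0.21 for Atf3 without nocodazole replicate 3. The median change of the immediate early list changed sign in 9 of 20 alternatives and that of the kinase list in 14. That of the targets did so in 2 and that of the bZIP partners and of the corepressors in 0. The values within each dye label, and those without nocodazole replicate 3, were alternatives chosen after seeing the data. The cause of these shifts was not tested.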
